A study of Sus scrofa with 10 samples.

Results

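The genes described here are PAX6, NEUROG2, INSM1, HES6, EOMES, TBR1 and EMX1, the transcription factors that mark successive steps from a dividing cortical progenitor to a young excitatory neuron. They were chosen by name, with earlier results of these data known, and are 7 of the 22452 genes in the deposited tables. In the developing cortex, PAX6 is made by radial glia, the dividing cells that line the ventricle, and promotes the expression of NEUROG2, a proneural factor that drives progenitors toward a neuronal fate. Their daughter cells, the intermediate progenitors (IPs), make EOMES (also called TBR2) together with INSM1, a zinc finger factor that promotes the formation of these basal progenitors, and HES6, a relative of the Notch effectors that favors neuronal differentiation. TBR1, a close relative of EOMES, follows in newborn excitatory neurons of the deep layers, and EMX1 marks the dorsal forebrain lineage from progenitor to neuron.

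The single-cell RNA-seq data came from the medial entorhinal cortex (MEC) of the pig and comprised 10 libraries of 28229 cells. The fetal tissue was from crossbred Danish Landrace/Yorkshire × Duroc fetuses, and the postnatal tissue is labelled adult. The study's methods name adult sows as the source of the postnatal libraries. They also list younger postnatal pigs, whose age the study's results give for the postnatal samples. Whole cells were captured at embryonic day 50 (E50) in 1 library pooled from 3 brains, at E60 in 3 libraries (E60_1, E60_2 and E60_3, from 1, 1 and 2 brains) and at E70 in 3 libraries (E70_1, E70_2 and E70_3, labelled as 2, 1 and 1 brains). Isolated nuclei made up E70_nc and Adult_nc, and Adult_1 held adult whole cells, each from 1 brain. No treatment or genetic change was applied to any group, so the comparisons are between stages, libraries, cell classes and cells. E50, the nuclei and the adult rest on 1 library each, and p-values for E60 against E70 measure the spread between 3 libraries a stage.

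On the Sscrofa11.1 assembly, RefSeq places PAX6 at chr2:28971565-29001149, NEUROG2 at chr8:110200681-110206081, INSM1 at chr17:28379529-28382554 and HES6 at chr15:137785808-137787689. EOMES lies at chr13:14209590-14216184, TBR1 at chr15:68208884-68222993 and EMX1 at chr3:69842061-69863940. In this annotation TBR1 overlaps PSMD14, a proteasome subunit gene. The study counted reads on the Ensembl annotation instead, and how reads from the shared stretch were assigned was not tested. These spans cover whole genes with exons and introns, and reads were counted over both.

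The libraries held 493 to 8171 cells with a median of 690 (Adult_nc) to 9403 (E70_2) unique molecular identifiers (UMIs) per cell. Levels are given as counts per 1000000 UMIs (CPM), summed over the cells named. E60_1 and E60_2 stood apart from the rest: neither held a cell of the excitatory-like or IP-like clusters described below, whereas E60_3 held 1370 and 105. E50_1, E60_1 and E60_2 also held 77, 197 and 24 cells of a cluster with cerebellar granule cell markers. A cluster led by CBLN1 scored highest for the same markers but was left unnamed, and held 131 cells in E50_1 and 145 in E60_1. Of all cell barcodes, 449 occurred in more than 1 library, and 901 cells carried such a barcode.

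PAX6 was detected in every library. Its level was 44.7 CPM in E50_1 (95% Poisson interval 43.0 to 46.5, which covers counting error only). At E60 it was 29.2 CPM in E60_1, 3.81 in E60_2 and 55.0 in E60_3, and at E70 it was 34.8 in E70_1, 19.1 in E70_2 and 49.7 in E70_3. The E70 nuclei gave 6.47 CPM, the adult whole cells 11.15 CPM and the adult nuclei 2.57 CPM, so all of the adult and nuclei values lay below those of the fetal whole cells other than E60_2. The means were 29.4 ± 25.6 CPM (SD, n = 3) at E60 and 34.5 ± 15.3 CPM (SD, n = 3) at E70, and the libraries of the stages overlapped.

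The 3 members that act between PAX6 and EOMES or beside EOMES differed widely in how often they were counted. NEUROG2 had 9 UMIs in the whole data set, 7 of them in E50_1, 1 in E60_3 and 1 in E70_2. INSM1 had 2 UMIs, both in E50_1. At this depth neither gene could be placed in a stage or cell class, and a low count here does not show that the genes were silent. HES6 was highest at E50, with 239 CPM in E50_1 (Poisson interval 235 to 243), where 70.6% of all cells held a UMI of it (95% Clopper-Pearson interval 69.4% to 71.8%). In the microglia-, vascular-, erythroid- and oligodendroglia-like cells of E50_1 this share was 40.8%. HES6 was 17.0, 31.7 and 24.6 CPM in E60_1, E60_2 and E60_3 and 61.1, 48.8 and 8.15 CPM in E70_1, E70_2 and E70_3, and 8.67 CPM or less in the adult libraries and the E70 nuclei. E50 was a single library, so the difference from later stages has no replicate check. Among the E70 whole-cell libraries, E70_3 was the lowest for HES6. It shared a sequencing pool with E60_3, and the part of the pool in this value was not tested.

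EOMES was 10.9 CPM in E50_1 (Poisson interval 10.1 to 11.8). It was 0.551, 0.393 and 30.2 CPM in E60_1, E60_2 and E60_3 and 39.8, 53.5 and 9.66 CPM in E70_1, E70_2 and E70_3. The E70 nuclei held 3 UMIs, and the adult whole cells and nuclei 5 UMIs each. The level in E60_3 was above that in E70_3 and below those in E70_1 and E70_2, so that the stages overlapped. TBR1 was 12.1 CPM in E50_1 and 12.8, 10.2 and 12.0 CPM in the E70 whole-cell libraries, a narrow range, but 18.1 CPM in E60_3 against a single UMI in each of E60_1 and E60_2. The E70 nuclei gave 6.47 CPM of TBR1 and the adult whole cells 1.65 CPM. EMX1 was highest in E50_1, at 40.6 CPM (Poisson interval 39.0 to 42.3), followed by E60_3 at 17.2 CPM and E70_3, E70_2 and E70_1 at 13.6, 11.9 and 8.39 CPM. E60_1 and E60_2 had 0.482 and 0.511 CPM of EMX1, from 21 and 13 UMIs.

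**Figure D1:**
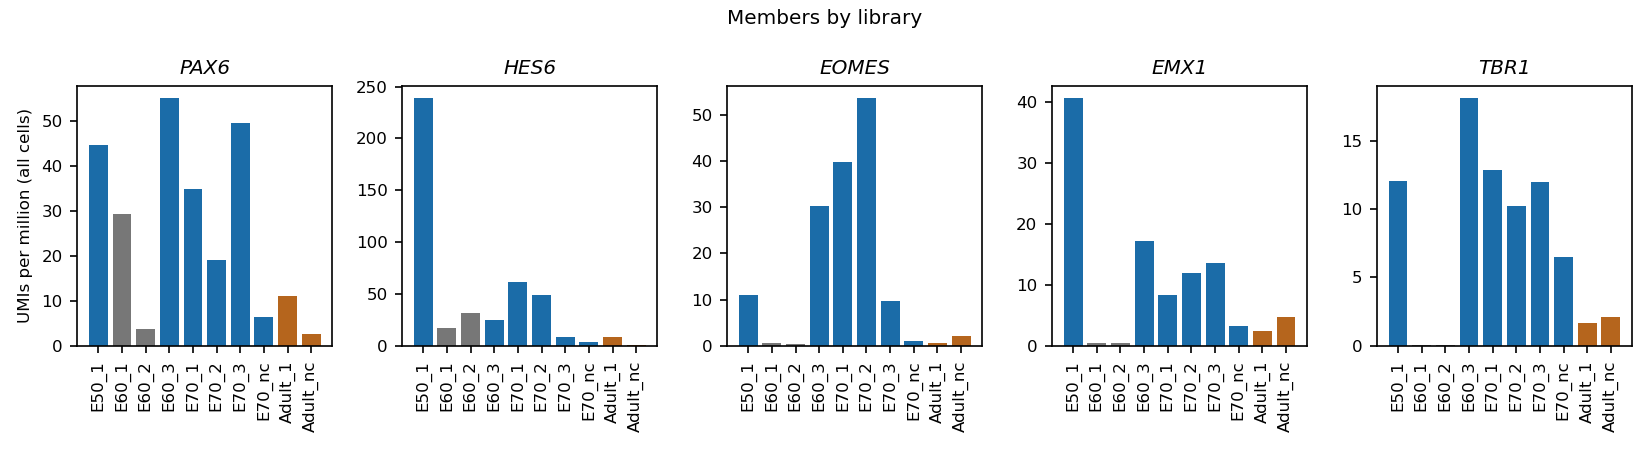
Level of 5 members in each of the 10 libraries, in CPM over all cells (bars, linear axes from 0), with E60_1 and E60_2 in grey, the other fetal libraries in blue and the adult in brown. EOMES, TBR1 and EMX1 were near 0 in E60_1 and E60_2, while PAX6 stood at 29.2 CPM in E60_1, and HES6 and EMX1 were highest in E50_1.

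The stages with replicate libraries were compared to ask whether the cascade genes changed between E60 and E70. No difference was called for any of the 5 members tested. In edgeR's quasi-likelihood test with Benjamini-Hochberg adjustment over 16743 genes, the log2 difference (E70 minus E60, ± SE) was 1.72 ± 1.41 for EOMES (adjusted p = 0.413), 0.95 ± 1.64 for TBR1 (adjusted p = 0.700), 0.90 ± 1.17 for EMX1 (adjusted p = 0.606), 0.44 ± 0.65 for HES6 (adjusted p = 0.647) and 0.14 ± 0.74 for PAX6 (adjusted p = 0.904). No gene of the whole table was called either (0% of 16743, with 4916 at an unadjusted p under 0.05), while DESeq2 called 2833 (16.9%). The E60 libraries were so unlike that leaving out E60_3 raised edgeR's count to 5902 and put EOMES (log2 5.85), TBR1 (8.10) and EMX1 (4.21) past the threshold, with adjusted p = 0.0158, 0.0142 and 0.0143. What remained at E60 was then the pair of libraries without excitatory-like or IP-like cells in the shared clusters. When each library was clustered on its own, E60_1 or E60_2 held at least 20 IP-like cells. The part of the cell makeup in these calls was not tested. Within the astrocyte and radial glia-like cells, edgeR's quasi-likelihood test again called 0 of 14530 genes (0%, with 2374 at an unadjusted p under 0.05), DESeq2 called 789 (5.43%), edgeR called 987 without E70_3 and 26 without E60_3, and the log2 differences for the members ran from 0.19 for HES6 to 1.64 for EOMES. Without E60_3, EMX1 passed the threshold in this class too (log2 4.57, adjusted p = 0.0418 in edgeR's quasi-likelihood test). In simulated data of this design, 31% of genes changed 4-fold were recovered over all cells and 5% within this class, so differences of this size could be missed.

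To see which cells made each factor, cells were clustered with the 7 members and all listed marker genes left out, and clusters were named from markers alone. The values by class are a description, since the clusters came from the same cells. The IP markers also named a cluster of 535 cells. It was left unnamed by a rule set after its values were seen, and is not among the IP-like cells. The level of EOMES was highest in 1 cluster of 425 cells, the IP-like cluster, although the gene had no part in forming or naming it. The cluster was small, and held 28.9% of all EOMES UMIs, against 29.1% in the excitatory-like and 24.8% in the astrocyte and radial glia-like cells. This cluster was led by EOMES, NEUROD4, IGFBPL1 and HES6 and took 219 cells from E50_1, 105 from E60_3, 71 from E70_3, 15 from E70_2, 13 from E70_1 and 2 from the E70 nuclei. In the IP-like cells, EOMES was 205 CPM in E50_1, 323 in E60_3 and 221 in E70_3 (mean 250 ± 64.4, SD, n = 3), and 60.3%, 61.9% and 50.7% of these cells held a UMI of it (Clopper-Pearson intervals 53.5% to 66.8%, 51.9% to 71.2% and 38.6% to 62.8%). The excitatory-like cells of the same libraries had 2.21, 24.2 and 9.18 CPM and the astrocyte and radial glia-like cells 16.8, 49.5 and 7.18 CPM, so that the IP-like level was the highest in all 3 libraries.

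Microglia-like, vascular-like, erythroid-like and oligodendroglia-like cells, which lie outside this lineage, set the background. In them a UMI of EOMES was found in 1.61% of cells in E50_1, 1.55% in E60_3 and 0 of 345 cells in E70_3, which allows a share of up to 0.870% (3 counts) or, by the Clopper-Pearson interval, 1.06%, at median depths of 10699, 11587 and 8647 UMIs against 7084, 6497 and 5072 in the IP-like cells. In E70_1 and E70_2, however, 37.5% and 29.4% of these outside cells held an EOMES UMI (35.3 and 35.7 CPM), close to the excitatory-like cells of the same libraries (31.3% and 37.3%). EOMES in those libraries was therefore not separated from background in excitatory-like cells, and the axis positions, overlaps and class comparisons that use EOMES are also given below by library or without them. TBR1 was not raised in the same outside cells: it had a UMI in 0 of 72 and 0 of 68, which allows shares of up to 4.17% and 4.41% (3 counts) or, by the Clopper-Pearson interval, 4.99% and 5.28%, against 20.2% and 17.3% of the excitatory-like cells.

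Among the lineage classes, PAX6 was highest in the astrocyte and radial glia-like and the IP-like cells. In E50_1, E60_3, E70_1, E70_2 and E70_3 the astrocyte and radial glia-like cells had 106, 169, 94.3, 65.6 and 138 CPM, and the excitatory-like cells 3.47, 27.3, 7.78, 5.57 and 11.9 CPM. The background in the outside cells was 4.08 to 7.66 CPM, and the gap between it and the excitatory-like cells was widest in E60_3 (27.3 against 7.66 CPM), while in E50_1 the excitatory-like level lay below it. In the IP-like cells it was 63.4, 143 and 162 CPM in E50_1, E60_3 and E70_3, below the radial glia-like level in the first pair and above it in E70_3. PAX6 was higher still outside the cortical lineage: an unnamed cluster of 276 cells led by CBLN1, NEUROD1 and ZIC4 had 360 CPM, an unnamed cluster of 151 cells with TTR and SIX6 among its leading genes had 334 CPM, and the cerebellar granule-like cluster of 299 cells had 265 CPM.

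TBR1 was the member most restricted to neurons, with 76.4% of its UMIs in excitatory-like cells. The excitatory-like levels were 32.7, 31.4, 25.5, 18.6 and 21.4 CPM in E50_1, E60_3, E70_1, E70_2 and E70_3, against 2.85, 4.97, 7.39, 2.85 and 0.971 CPM in the astrocyte and radial glia-like cells. These ranges did not overlap. The IP-like cells already had 39.2, 17.5 and 40.6 CPM of TBR1 in E50_1, E60_3 and E70_3, within or above the excitatory-like range in the first and last of these. The highest level of any cluster, 72.3 CPM, was in 72 unnamed cells led by NDNF, CALB2 and RELN, the gene for reelin, and 72.2% of them held a TBR1 UMI at a median depth of 26968 UMIs.

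EMX1 and HES6 spanned all 3 steps, with the highest values in IP-like cells. EMX1 was 192, 44.5 and 43.1 CPM in the IP-like cells of E50_1, E60_3 and E70_3, against 86.7, 21.5 and 18.4 CPM in the excitatory-like and 46.9, 24.7 and 12.6 CPM in the astrocyte and radial glia-like cells. HES6 was 1422, 95.6 and 40.6 CPM in the IP-like cells, against 318, 29.997 and 9.47 CPM in the excitatory-like cells and 156, 22.3 and 5.44 CPM in the astrocyte and radial glia-like cells. The order of the classes was thus the same in each of these libraries for HES6, while every class had a lower level in E60_3 and E70_3 than in E50_1. The same held for the background, at 47.3, 13.9 and 7.15 CPM in the outside cells, and in E70_3 the astrocyte and radial glia-like level was at or below it.

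**Figure D2:**
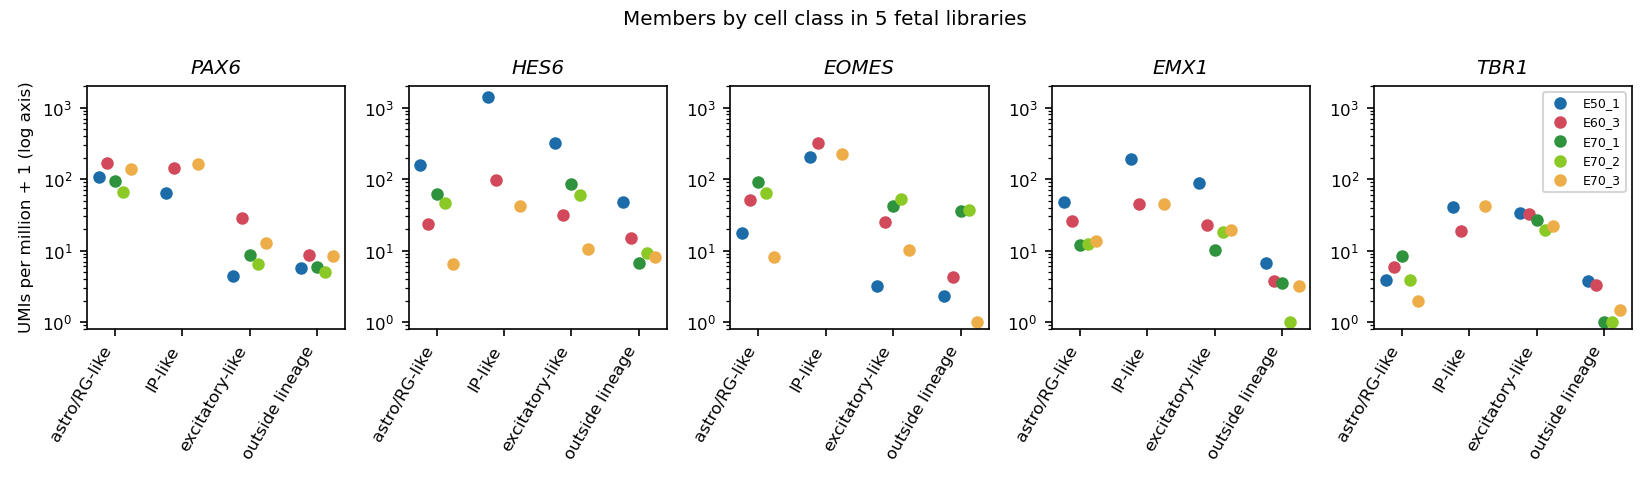
Level of each member by cell class in 5 fetal libraries (CPM plus 1, log axis), where each point is 1 library and classes of fewer than 20 cells are not drawn. EOMES peaks in the IP-like cells of E50_1, E60_3 and E70_3 and is raised in cells outside the lineage (microglia-, vascular-, erythroid- and oligodendroglia-like) in E70_1 and E70_2, at 35.3 and 35.7 CPM.

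The order of the members along the lineage was then measured in the astrocyte and radial glia-like, IP-like and excitatory-like cells of E50_1, E60_3, E70_1, E70_2 and E70_3. Each cell was placed on an axis from radial glia genes to neuron genes with no member among them, and the position of a gene is the mean percentile of its UMIs on that axis within a library. PAX6 lay earliest at 20.4 ± 2.08 (SD, n = 5), followed by EOMES at 38.4 ± 4.52, HES6 at 49.7 ± 3.92, EMX1 at 49.96 ± 5.49 and TBR1 last at 62.0 ± 3.06. PAX6 was at 19.7, 22.8, 17.2, 20.8 and 21.2 in the 5 libraries in the order above, EOMES at 34.6, 33.8, 39.5, 45.01 and 39.2, and TBR1 at 63.0, 59.1, 60.4, 60.6 and 66.9. The ranges of these 3 genes did not overlap, and the order PAX6, EOMES, TBR1 held in each library.

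EOMES came 18.1 ± 5.42 percentile points after PAX6 (later in 5 of 5 libraries, 10.9 to 24.2), HES6 11.3 ± 6.35 after EOMES (5 of 5) and TBR1 12.0 ± 3.402 after EMX1 (5 of 5). EMX1 and HES6 were not separated, with a difference of 0.241 ± 2.503 and EMX1 later in 3 of 5 libraries (exact two-sided sign-flip permutation p = 0.75). For each of the other 3 neighbors the exact two-sided sign-flip permutation p was 0.0625, which is the smallest that 5 libraries allow, and 0.0833 after Benjamini-Hochberg adjustment over the 4 neighbors. The design therefore could not reach a p under 0.05. Without E70_1 and E70_2 the differences were 14.6 for EOMES after PAX6, 15.7 for HES6 after EOMES and 11.4 for TBR1 after EMX1. The difference of HES6 from EOMES ranged from 2.93 to 17.8 over the 5 libraries. HES6 was also counted in the outside cells, at 7.15 CPM in E70_3. The astrocyte and radial glia-like and excitatory-like cells of E70_3 had 5.44 and 9.47 CPM. The part of this background in the position of HES6 was not tested.

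With the axis cut into 5 bins of equal cell number in each library, PAX6 was lower in each successive bin, at 134, 72.8, 16.3, 12.0 and 5.39 CPM over the 5 libraries together. By library this held in E60_3 and E70_3. PAX6 rose from 2.97 to 3.82 CPM between bins 3 and 4 in E50_1. Between bins 4 and 5 it rose from 1.68 to 6.82 CPM in E70_1 and from 3.65 to 7.89 CPM in E70_2. EOMES was highest in bin 2, at 75.8 CPM in E50_1, 128 in E60_3 and 47.4 in E70_3, where bin 1 had 2.01, 38.0 and 2.19 CPM and bin 5 had 2.29, 10.2 and 1.27 CPM. In E70_1 and E70_2 EOMES had no such peak, with 30.7 to 88.6 CPM and 46.2 to 74.4 CPM over the bins. TBR1 was 2.12 CPM in bin 1, 20.3 in bin 2 and 31.1 in bin 3, and 29.1 and 24.6 CPM in bins 4 and 5. HES6 shared the peak of EOMES in bin 2 in E50_1, E60_3 and E70_3 but kept a higher share of its peak level in bins 3 to 5, and EMX1 had its highest bin at 4 different places in the 5 libraries.

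**Figure D3:**
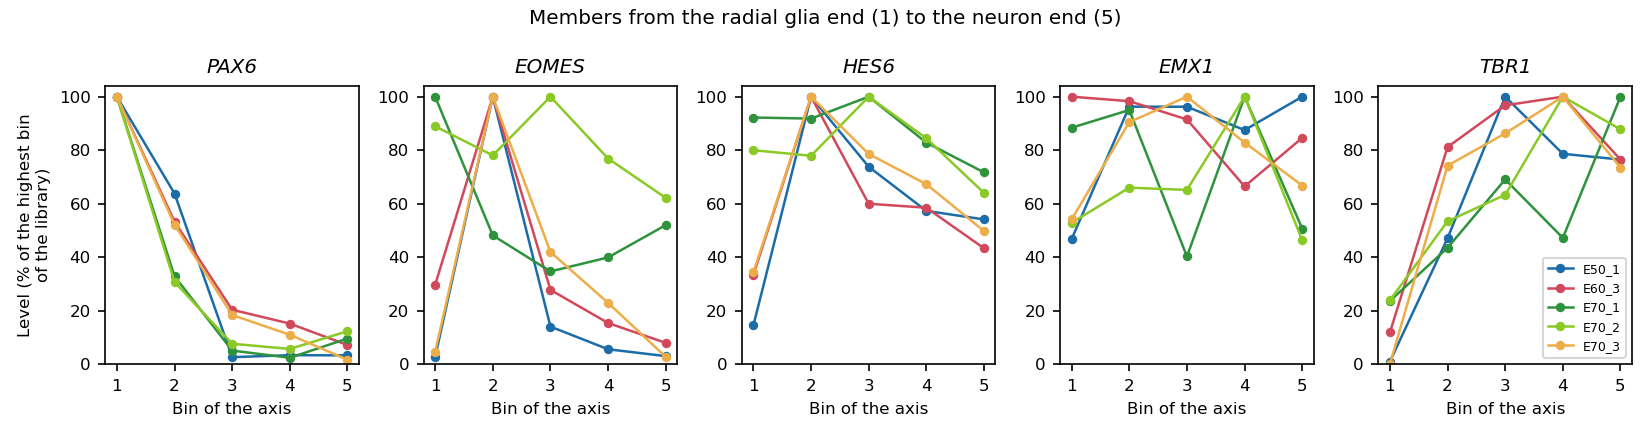
Level of 5 members in each of 5 bins of the axis from the radial glia end (1) to the neuron end (5), as a percentage of the highest bin in the same library, with 1 line per library. PAX6 is highest in bin 1 in all 5 libraries, EOMES peaks in bin 2 in E50_1, E60_3 and E70_3 but not in E70_1 or E70_2, and TBR1 is lowest in bin 1 in all 5.

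Whether neighbors in the cascade were found together in single cells was assessed by counting cells with a UMI of both genes. The expected number was taken from the share of each gene within 10 groups of cells of like depth in each library, in the fetal libraries other than E60_1 and E60_2 (13290 cells). PAX6 and EOMES were found together in 458 cells where 251 were expected, a ratio of 1.82. The ratio was 2.83 in E50_1, 1.83 in E60_3, 1.30 in E70_1, 1.11 in E70_2 and 1.54 in E70_3, above 1 in 5 of 5 libraries and lowest in the pair with raised EOMES background. PAX6 and TBR1, the ends of the cascade, were found together in 217 cells where 289 were expected (0.751), with ratios of 0.526, 1.06, 1.04, 0.510 and 0.547 in the same order. E60_3 and E70_1 did not share the deficit.

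EOMES and TBR1 gave 187 cells where 144 were expected (1.30), with ratios of 1.53, 1.38, 0.949, 1.02 and 1.56. The excess was present in E50_1, E60_3 and E70_3 and near 1 in E70_1 and E70_2. Within the IP-like cells alone the ratio was 0.952 for EOMES and TBR1 and 1.15 for PAX6 and EOMES. EMX1 was found with EOMES (1.70) and with TBR1 (1.59) more often than expected, and HES6 with EOMES (1.39), EMX1 (1.21) and TBR1 (1.16). The ratios of PAX6 with EMX1 (1.14) and with HES6 (1.04) were closest to 1. Without E70_1 and E70_2 the ratios with EOMES were 2.05 for PAX6, 1.83 for EMX1, 1.48 for HES6 and 1.45 for TBR1.

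The ratios were also taken within the lineage. With the astrocyte and radial glia-like, IP-like and excitatory-like cells alone, PAX6 and EOMES kept a ratio of 1.58 (1.18 to 2.49 over the 5 libraries) and PAX6 and TBR1 one of 0.604 (0.385 to 0.913). EOMES and TBR1 were then close to 1, at 1.055 (1.06, 1.15 and 1.07 in E50_1, E60_3 and E70_3), and so were TBR1 and EMX1, at 1.045 (0.866 to 1.198). EOMES with EMX1 gave 1.33 and HES6 with EOMES 1.33. Drawing every cell down to 3000 UMIs gave 2.195 for PAX6 and EOMES, 1.45 for EOMES and TBR1 and 0.565 for PAX6 and TBR1. Cells that shared PAX6 and TBR1 without EOMES in the lineage clusters were called doublets in 15% of cases, against 5.28% of those with PAX6 alone, 5.98% with PAX6 and EOMES, 0.636% with EOMES alone, 3.497% with TBR1 alone and 8.70% with all 3. Without the called doublets, PAX6 and EOMES gave a ratio of 1.82 over all cells and PAX6 and TBR1 one of 0.726. Counted over these genes, a single IP-like cell held a UMI of 2.86 members on average in E50_1, 1.99 in E60_3 and 1.62 in E70_3.

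**Figure D4:**
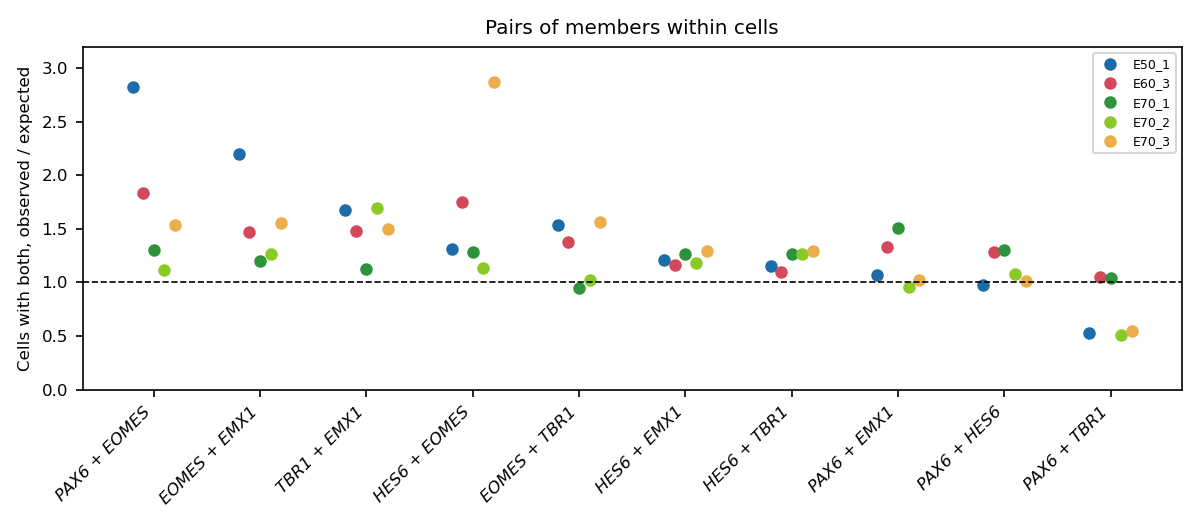
Ratio of observed to expected cells holding a UMI of both genes of a pair, for 10 pairs of members, where each point is 1 library and the dashed line marks a ratio of 1. PAX6 with EOMES lies above 1 in all 5 libraries (1.11 to 2.83) and PAX6 with TBR1 lies at 0.547 or below in E50_1, E70_2 and E70_3.

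The first step of the cascade was examined by comparing EOMES-positive with PAX6-positive cells of the lineage clusters. EOMES-positive cells held an EOMES UMI and none of TBR1, and could hold PAX6, while PAX6-positive cells held PAX6 and neither of the others. HES6 was higher in EOMES-positive cells: 1035 against 165 CPM in E50_1, 54.0 against 19.8 in E60_3, 78.4 against 59.2 in E70_2 and 29.2 against 6.46 in E70_3. All 4 libraries that could be compared went the same way, with a log2 difference of 1.94 ± 0.27 (SE, adjusted p = 6.00e-04, edgeR's quasi-likelihood test with library as a block). EMX1 was 158 against 58.3 CPM in E50_1, 24.7 against 25.8 in E60_3, 19.0 against 7.40 in E70_2 and 23.2 against 15.6 in E70_3. It was higher in 3 of 4 libraries, and its call (log2 0.83 ± 0.24, adjusted p = 0.0367 in the same edgeR test) was lost without E50_1 (log2 0.34, adjusted p = 0.412), without E70_2 (adjusted p = 0.0706), without E70_3 (adjusted p = 0.0524) and in DESeq2 (adjusted p = 0.0703). Of 12474 genes tested, 1911 were called (15.3%), 827 higher (6.63%) and 1084 lower (8.69%), while DESeq2 called 1337 (10.7%). The count was 1766 without E70_2 (E70_1 was not in this fit), 978 without E60_3, 1023 without E70_3, 686 with every cell drawn down to 3000 UMIs and 642 when cells of all clusters were taken. The classes differed in depth, with medians of 9413 UMIs in PAX6-positive and 8130 in EOMES-positive cells, and HES6 kept its call at 3000 UMIs. HES6 and EMX1 are the 2 members that the classes did not use and that had enough counts. Both were highest in IP-like cells, and the classes differed in makeup. In E50_1, 57.3% of EOMES-positive and 3.28% of PAX6-positive cells were IP-like. The part of this makeup in the HES6 and EMX1 differences was not tested.

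Beside these members, genes of radial glia fell and early neuronal genes rose in EOMES-positive cells. The astrocyte and radial glia, IP and excitatory lists also named the clusters these cells came from. Their shifts are therefore not independent of the makeup of the classes. Over the 5 libraries, PAX6-positive cells were 75.4% astrocyte and radial glia-like, 2.85% IP-like and 21.7% excitatory-like. EOMES-positive cells were 20.6%, 26.4% and 53.0%. The part of this makeup in the shifts of the other lists was not tested. Of the astrocyte and radial glia genes, 9 of 9 tested fell (0 rose), among them AQP4, a water channel (log2 -3.14), GFAP (-2.70), HES1, a Notch effector (-2.57), and VIM, the intermediate filament vimentin (-1.91). VIM went from 2282 to 772 CPM in E50_1, from 1119 to 279 in E60_3, from 1169 to 310 in E70_2 and from 515 to 101 in E70_3. Of the IP genes, 5 of 8 rose, led by NEUROD4, a proneural factor (log2 3.95 ± 0.27, SE), NEUROD1 (2.04), MFNG, a modifier of Notch (1.73), and the somatostatin receptor gene SSTR2 (1.65). NEUROD4 went from 3.37 to 82.2 CPM in E50_1, from 7.00 to 59.7 in E60_3, from 2.47 to 15.3 in E70_2 and from 2.63 to 63.4 in E70_3, so the classes did not overlap. In the median over genes the lists moved by -1.96 (astrocyte and radial glia) and 1.39 (IP), against 0.01 over all genes tested.

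In the Notch pathway, which keeps radial glia undifferentiated, 5 of 11 genes tested fell and 1 rose. Those that fell included HES1, the receptors NOTCH3 (log2 -2.38) and NOTCH2 (-1.29) and the modifier LFNG (-1.88), and MFNG was the gene that rose, although it was higher in 3 of 4 libraries and lower in the other. Of the excitatory neuron genes, 5 of 7 rose, among them NEUROD2 (1.56), NEUROD6 (1.31) and the glutamate transporter gene SLC17A6 (1.14), and 5 of 12 later neuronal factors rose, a list that shares NEUROD2 and NEUROD6, among others, with the former. Cell cycle genes fell in 4 of 10 cases: TOP2A, a topoisomerase of dividing cells (-0.86), CDK1 (-0.98), CCNB1 (-0.72) and BIRC5 (-0.47). When EOMES-positive cells that held PAX6 were left out, 9 of 9 cell cycle genes tested fell. In that fit 2426 of 10450 genes were called (23.2%), with 11.6% of all genes tested lower. The dorsal forebrain list had 1 of 4 genes lower (GLI3, -0.68). Among genes of other cells, HBM, a hemoglobin gene, was higher (2.01, adjusted p = 0.0468 in edgeR's quasi-likelihood test), from 0.965 to 18.2 CPM in E60_3 but from 5.51 to 0 CPM in E70_3, and the oligodendroglia gene OLIG1 was lower (-2.03).

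The second step was examined by comparing TBR1-positive cells, with a TBR1 UMI and none of EOMES or PAX6, with EOMES-positive cells. HES6 fell from 1035 to 318 CPM in E50_1, from 54.0 to 21.9 in E60_3, from 118 to 79.8 in E70_1, from 78.4 to 66.1 in E70_2 and from 29.2 to 10.0 in E70_3. The fall was seen in 5 of 5 libraries, with a log2 difference of -1.12 ± 0.20 (SE, adjusted p = 0.00427, edgeR's quasi-likelihood test with library as a block). EMX1 was 70.7 against 158 CPM in E50_1, 22.5 against 24.7 in E60_3, 5.70 against 12.9 in E70_1, 13.7 against 19.0 in E70_2 and 17.9 against 23.2 in E70_3. It was lower in 5 of 5 libraries but did not pass the test (log2 -0.63 ± 0.21, adjusted p = 0.0719 in the same edgeR test). Of 11762 genes tested, 1391 were called (11.8%), 557 higher (4.74%) and 834 lower (7.09%), while DESeq2 called 937 (7.97%). The count was 409 without E60_3, 709 without E70_3, 792 without E50_1 and 328 with every cell drawn down to 3000 UMIs.

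Cell cycle genes fell in 9 of 9 cases at this step, among them AURKB, a mitotic kinase (log2 -4.20), CCNB2 (-3.34), TOP2A (-3.30) and BIRC5 (-2.55). TOP2A went from 334 to 21.5 CPM in E50_1, from 217 to 19.7 in E60_3, from 151 to 5.70 in E70_1, from 107 to 25.1 in E70_2 and from 111 to 17.0 in E70_3. The astrocyte and radial glia genes fell again (9 of 9 tested, with SOX2 at -3.47 and VIM at -3.39), 4 of 6 Notch genes fell (NOTCH1 at -2.27, HES1 at -2.44), and so did all 4 dorsal forebrain genes tested, DMRTA2 (-2.33), EMX2 (-1.82), GLI3 (-1.56) and LHX2 (-0.66). Of the IP genes, 2 of 5 fell, NEUROD4 (-4.21) and BTG2, a gene of cells leaving the cycle (-1.20, lower in 3 of 5 libraries). Over the 5 libraries, 96.1% of TBR1-positive cells were excitatory-like and 0.765% astrocyte and radial glia-like, against 53.0% and 20.6% of EOMES-positive cells. The lists that named these clusters are not independent of that makeup. A cluster of 1527 astrocyte and radial glia-like cells also had TOP2A and CCNB1 among its leading genes. The part of the makeup in the falls of HES6 and of the cell cycle, Notch and dorsal forebrain genes was not tested. Excitatory neuron genes rose in 6 of 7 cases, with NEUROD6 at 1.71 and SLC17A6 at 0.70, and 5 of 12 later neuronal factors rose, with MEF2C at 1.42 and BCL11B at 0.91. NEUROD6 was 736 against 136 CPM in E50_1, 216 against 46.0 in E60_3, 59.9 against 34.1 in E70_1, 189 against 96.2 in E70_2 and 386 against 151 in E70_3. The list medians were -2.89 (cell cycle) and 0.91 (excitatory), against 0.01 over all genes tested.

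The EOMES-positive class included cells that also held PAX6, which the TBR1-positive class excluded by its definition. When such cells were left out, the EOMES-positive cells went from 773 to 472, and 235 genes were called in place of 1391. These were 2.38% of the 9894 tested, with 1.40% lower and 0.97% higher. Of the lists, 2 of 4 cell cycle genes, 5 of 6 astrocyte and radial glia genes and 0 of 3 Notch genes were lower. Of the excitatory genes, 2 of 7 were higher. TOP2A was then at log2 -1.51, VIM at -1.99 and NEUROD6 at 1.04, and HES6 kept its call (log2 -0.93, adjusted p = 0.0311 in edgeR's quasi-likelihood test). EOMES-positive cells were also a mixed class: 57.3% of them were IP-like in E50_1, 22.8% in E60_3, 21.7% in E70_3, 7.14% in E70_2 and 6.49% in E70_1. Without E70_1 and E70_2, 1718 of 12205 genes were called (14.1%, with 7.70% lower), and 10 of 10 cell cycle genes fell.

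Sorting lineage cells by which of PAX6, EOMES and TBR1 they held, a grouping chosen after the values above were seen and given without a test, gave different courses for TOP2A and VIM. TOP2A was 519 CPM in E50_1 in cells with PAX6 alone and 532 in those with PAX6 and EOMES, but 122 in those with EOMES alone and 21.5 in those with TBR1 alone. The values were 319, 324, 38.7 and 19.7 CPM in E60_3, 269, 275, 20.4 and 25.1 CPM in E70_2 and 255, 228, 44.1 and 17.0 CPM in E70_3. In each of these libraries the value with EOMES alone was far below that with both factors. In E70_2, however, EOMES was not separated from background in excitatory-like cells, which limits its values here and below. Its groups with EOMES alone and with both were 99 and 27 cells, at median depths of 10505 and 18062 UMIs. VIM was already lower in cells with both: 2282, 1071, 454 and 80.0 CPM over the 4 groups in E50_1 and 1119, 397, 80.4 and 14.1 CPM in E60_3. TOP2A thus differed little between the groups with and without EOMES as long as PAX6 was present.

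NEUROD4 was highest in cells with both PAX6 and EOMES in all 4 libraries, at 99.2 CPM in E50_1, 74.0 in E60_3, 30.7 in E70_2 and 66.9 in E70_3, against 2.47 to 7.00 CPM with PAX6 alone and 1.81 to 4.56 CPM with TBR1 alone. With EOMES alone it was 64.1, 35.6, 7.42 and 61.5 CPM, in E70_3 nearly the level with both. HES6 was highest in the cells with both, at 1124, 58.2, 110 and 50.1 CPM, against 941, 46.8, 62.1 and 17.3 CPM with EOMES alone. NEUROD6 had its lowest value there (39.0, 25.5, 16.3 and 11.14 CPM) and was at 240, 80.4, 137 and 230 CPM with EOMES alone and 736, 216, 189 and 386 CPM with TBR1 alone. Over the 5 libraries 1230 cells held PAX6 alone, 301 PAX6 and EOMES, 472 EOMES alone and 915 TBR1 alone, at mean axis percentiles of 21.9, 29.98, 49.9 and 65.8. In addition, 69 cells held all 3 factors, at a median depth of 12851 UMIs.

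**Figure D5:**
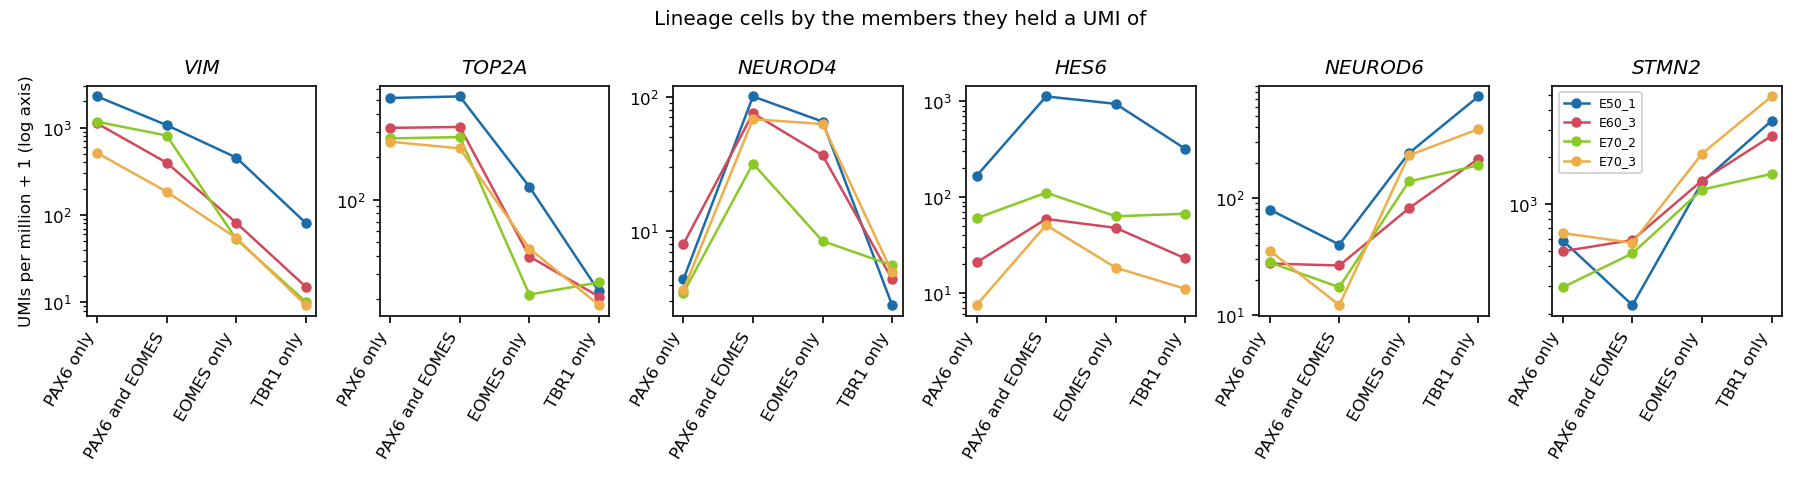
Level of 6 genes in lineage cells that held PAX6 alone, PAX6 and EOMES, EOMES alone or TBR1 alone (CPM plus 1, log axes that differ between panels), with 1 line per library for the 4 libraries with at least 20 cells in each group. TOP2A is level between the first pair of groups (519 and 532 CPM in E50_1) and lower with EOMES alone, VIM is lower at each step in all 4 libraries, NEUROD4 and HES6 are highest with PAX6 and EOMES, and NEUROD6 is lowest there and highest with TBR1 alone. EOMES in E70_2 was not separated from background in excitatory-like cells.

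The genes whose levels were most like each member over the 45 clusters of all cells were found by Pearson's r of log2(CPM + 1) among 13258 genes. The clusters share libraries and depth and include E70_1 and E70_2, so these values are a description. For PAX6 they were NDP (0.83), MSI1 (0.78) and MEIS1 (0.73), and for HES6 DDAH2 (0.80), DPYSL4 (0.79) and C12orf49 (0.79). For EOMES they included TFAP2C (0.81) and the gene ENSSSCG00000000194 (0.73). TBR1 was most like EMX1, another member (0.79), followed by ENSSSCG00000014895 (0.77) and EPHA3 (0.77), and EMX1 was most like EPHA3 (0.85), CFAP97D1 (0.83) and SSTR2 (0.82). EOMES itself was closer to EMX1 (0.62) than to TBR1 (0.51), PAX6 (0.51) or HES6 (0.39).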

How the data were processed

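The authors captured cells and nuclei with 10x Genomics v2 chemistry and, mapped reads to Sscrofa11.1, intronic reads included, with Cell Ranger (version 2.20 per the submitters' processing notes). The deposited files hold raw UMI counts per gene and cell, used as they stand. The members and gene lists were chosen with earlier results of these data known. No library lost cells to a further filter. Counts were log-normalized, corrected between libraries by the FastMNN method and clustered (Louvain, igraph 0.11.9) without the members and listed markers. Clusters were named from marker lists. A cluster with as many leading markers of another class as of its own was left unnamed. The rule was set after the values were seen of 535 cells that the markers had named IP. OLIG1 and DLL3 were among their leading genes. It also left unnamed 276 cells first named cerebellar granule and 100 first named astrocyte and radial glia. Doublets were scored with Scrublet (scanpy 1.11.5), the highest scores being called at the rate the cell number implies, since its automatic threshold did not separate the scores. They were kept except in an alternative.

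Counts were summed per library, or per library and class of at least 20 cells, and tested with edgeR 4.0.16 (quasi-likelihood, TMM, filterByExpr, adjusted p under 0.05) in R 4.3.3, with DESeq2 1.42.0 as an alternative. The fits were tested on simulated data. Among genes changed 2-fold, 82% were recovered for EOMES-positive against PAX6-positive cells and 80% for TBR1-positive against EOMES-positive cells. The 5 members with at least 20 UMIs were placed on the axis, because no library had that many of all 7, and the 4 neighbors in their order were tested. IP-like cells of the shared clusters were not compared between E60 and E70, since 1 library a stage held at least 20 of them. With classes from clusters of each library on its own, 4 libraries held enough such cells, among them E60_1 or E60_2. That fit called 0 of 10797 genes in edgeR's quasi-likelihood test, with 254 at an unadjusted p under 0.05. Named genes were the members, up to 4 genes of each list by lowest adjusted p, and the 3 most alike genes of each member, and leading genes of clusters were named after their values were seen. A few genes that this rule names are not reported here. No sequence is printed, as no sequence table was used here.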

Additional observations from a re-analysis of the deposited data

How the results depend on the processing

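The E60 against E70 counts changed most with the processing. Over all cells edgeR called 0 genes, DESeq2 2833, and edgeR 0 to 5902 when a library was left out (5902 without E60_3 and 1570 without E70_3). Within astrocyte and radial glia-like cells the counts were 0, 789 and 0 to 987 (26 without E60_3 and 987 without E70_3). With the replicate number as a block, edgeR called 0 genes in both. Same-numbered libraries gave r = -0.171, 0.0322 and -0.126, and the other pairs -0.0765 to 0.170. With 3 libraries a stage, these values cannot settle whether the numbers pair the samples, and E60_3 and E70_3 shared a sequencing pool. The uncalled log2 differences of members turned sign in places: over all cells PAX6 was -0.36 without E60_2, -0.20 without E70_3, 0.81 without E60_3 and -0.67 without E60_1 and E60_2, where TBR1 was -0.63 and EMX1 -0.58. Within the class PAX6 was -0.035 without E60_2 (1.92 without E60_3), EMX1 -0.035 without E60_1 and -0.025 without E60_2 (4.57 without E60_3), and HES6 -0.17 with the replicate block and -0.025, -0.036, -0.32 and -0.094 without E60_1, E60_3, E70_1 and E70_2 (0.73 without E70_3). Without E60_1 and E60_2 PAX6 was -0.70, TBR1 -0.81 and EMX1 -1.003. For EOMES-positive against PAX6-positive cells, 1911 calls became 4 without the replicate block by library, 978 to 1766 without a library (978 without E60_3, 1023 without E70_3), 686 at 3000 UMIs a cell and 642 in all cells. For TBR1-positive against EOMES-positive cells, 1391 became 63 without the replicate block, 409 to 1521 without a library (409 without E60_3, 709 without E70_3, 792 without E50_1), 328 at 3000 UMIs a cell and 235 without PAX6-holding cells. No named log2 difference of these comparisons turned sign, and HES6 lost its call only without the block and, at the second step, in all cells (adjusted p = 0.0529 in edgeR's quasi-likelihood test). Along the axis EMX1 minus HES6 was -0.306 without E50_1 and -0.443 without E70_2, in a leave-one-out range of -0.443 to 0.958, while the ranges were 16.5 to 19.8 for EOMES minus PAX6, 9.68 to 13.4 for HES6 minus EOMES and 10.96 to 13.0 for TBR1 minus EMX1. Within IP-like cells overlap ratios fell below 1 for EOMES and TBR1 (0.952), EOMES and EMX1 (0.982), HES6 and EMX1 (0.993), HES6 and TBR1 (0.948) and PAX6 and EMX1 (0.936), and within lineage cells for PAX6 and HES6 (0.941). Except where fewer cells or libraries entered by construction, the cause was not tested. Leaving out E70_1 and E70_2, leaving out PAX6-holding cells, the lineage-only overlap and the 5-member axis were chosen after seeing the data. The depth of the nuclei and the 9 and 2 UMIs of NEUROG2 and INSM1 limit what can be said of them.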
